A study of Oryza sativa with 12 samples.

Results

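The genotype by organ interaction asks of each rice gene whether its response to OX6, a rice line overexpressing Zaxinone Synthase (ZAS), differed between roots and shoots. It is the OX6 minus WT difference in shoots less the OX6 minus WT difference in roots, on the log2 scale. All 12 libraries of the study entered it, in 1 fit with a mean for each of 4 groups of 3 libraries: WT roots, OX6 roots, WT shoots and OX6 shoots. WT was the cultivar Nipponbare, and all plants were 21 days old and grown hydroponically. Of 57501 gene models, 29042 passed the filter on low counts, and 572 of those, or 1.97%, were called for the interaction at a Benjamini-Hochberg adjusted p under 0.05 in edgeR's quasi-likelihood test. A positive interaction means that OX6 relative to WT was higher in shoots than in roots, and a negative one that it was lower in shoots.

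Some limits apply to every result. OX6 is a single line, so what ZAS does and what else may distinguish its stock from WT cannot be told apart. The promoter of the overexpression construct is not given in the sources used here. The labels do not say that the 3 libraries of a group came from separate plants, so p-values reflect only how these libraries vary, and that variation may be technical. Whole organs were sampled, so fewer cells of a type and less RNA per cell cannot be told apart. Both organs shared 1 estimate of the spread in the fit.

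ZAS is a carotenoid cleavage dioxygenase, an enzyme that cuts carotenoid-derived chains, and its product zaxinone is known as a growth-promoting compound in rice. Strigolactones and abscisic acid are other hormones made from carotenoids, and strigolactones restrain shoot branching and are released by roots. Roots take up nitrate, and both organs can reduce and assimilate it, with many of the genes involved induced by nitrate itself. Roots also meet low oxygen more readily than leaves, and plants sense it through cysteine oxidases that mark group VII ethylene response factors for breakdown.

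Total counts were 32269044 to 62910092 per library, and 28851 to 32074 genes had a count. The organ labels held: 34 models of shoot marker families (Rubisco small subunit, chlorophyll-binding and photosystem proteins), 30 of them with a count, summed to 97.2 to 169 CPM (counts scaled to library size) in roots and 157162 to 207049 in shoots. Within shoots that sum was 188707 to 207049 CPM in WT and 157162 to 166164 in OX6. The 159 models of root marker families, mostly peroxidases and 157 with a count, summed to 13270 to 14756 CPM in roots and 2910 to 3488 in shoots, with WT shoots at 2910 to 3358 and OX6 shoots at 3367 to 3488. The part of these differences in the results was not tested. ZAS itself (annotated as a carotenoid 9,10-cleavage dioxygenase, LOC_Os09g15240, chromosome 9, 9251214 to 9255028, minus strand) had 2.83, 2.90 and 2.54 CPM in WT roots, 316, 304 and 317 in OX6 roots, 0.175, 0.489 and 0.223 in WT shoots and 1861, 1821 and 1676 in OX6 shoots, the WT shoot values being 5, 26 and 7 reads. Both organs of OX6 stood far above WT, and OX6 shoots stood above OX6 roots while WT shoots stood below WT roots. ZAS rose 113-fold in roots and by 12.38 on the log2 scale in shoots, and its interaction was 5.56 ± 0.24 (log2 ± SE, adjusted p = 7.11e-10).

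Most interaction genes responded in shoots. In the same fit, 2459 genes (8.47%) were called between OX6 and WT in shoots and 293 (1.01%) in roots. Of the 572 interaction genes, 443 (77.4%) were called in shoots and not in roots, 58 (10.1%) in roots and not in shoots, 26 (4.55%) in both with opposite signs, 16 (2.8%) in both with the same sign, and 29 (5.07%) in neither. The shoot-only genes had a median absolute difference of 0.98 (log2) in shoots and 0.15 in roots. They comprised 277 that rose and 166 that fell in OX6 shoots. The root-only genes comprised 13 that rose and 45 that fell in OX6 roots, with medians of 1.22 in roots and 0.23 in shoots. Among the 26 opposite genes, 20 fell in roots and rose in shoots and 6 did the reverse. All 26 genes called in both organs with opposite signs were interaction genes, as were 16 of the 110 called in both with the same sign. Differences of opposite sign add up in this contrast and those of the same sign partly cancel. The split between these counts thus follows largely from the contrast itself. Interaction genes made up 34.1% of the root calls and 19.7% of the shoot calls. The 2 organs differ in replicate spread (biological coefficient of variation of 9.61% in roots and 16.2% in shoots when fitted alone, 13.2% together). With calls taken from the fits of each organ alone, an alternative added after the values were seen, the classes held 334, 78, 34 and 23 genes, 328, 49, 17 and 15 of them in the same class as before. Of the 443 shoot-only genes, 78 were called in neither organ, 14 in roots only, 15 in both with opposite signs and 8 in both with the same sign by those calls.

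**Figure D1:**
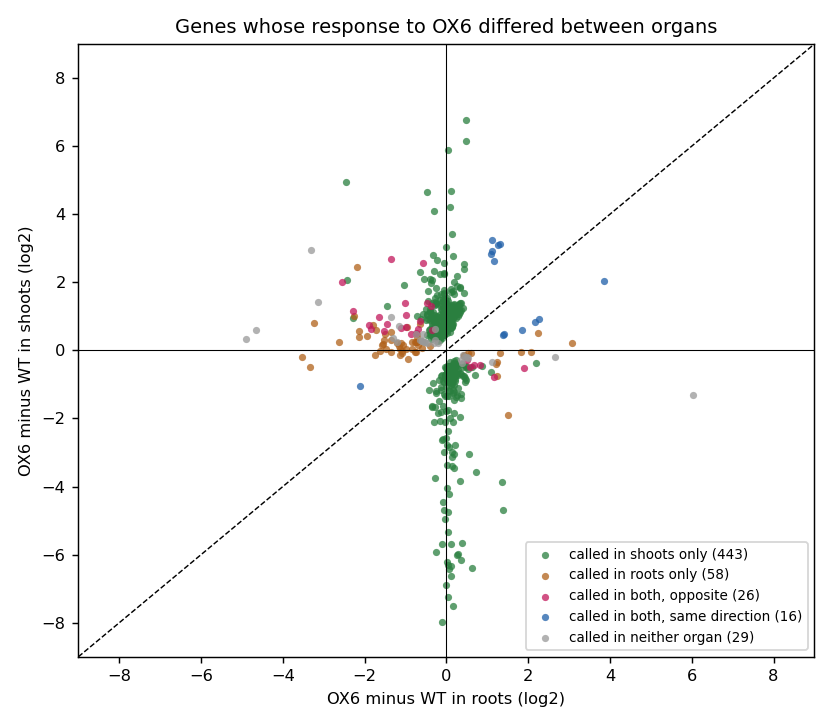
OX6 minus WT difference of the 571 interaction genes other than ZAS in roots (x axis, log2) and in shoots (y axis, log2), coloured by the organ in which the gene was called. ZAS, at 6.82 in roots and 12.38 in shoots, lies outside the axes. So do LOC_Os07g32710, at 12.18 in roots, and LOC_Os03g18779, at 13.92 in shoots, by the fits of each organ alone. The dashed line marks equal responses. The 443 genes called in shoots only, with a median absolute root difference of 0.15, lie mostly along the vertical axis, some with root differences as far as -2.47 and 2.20.

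Positive interactions outnumbered negative ones, 371 (1.28% of genes tested) to 201 (0.692%), but this split followed the scaling and the WT shoot libraries. The positive share was 64.9% of calls here, 59.1% with RLE factors, 52.9% with upper-quartile factors, 50.4% in DESeq2 and 72.4% in limma-voom. It was 46.5% without the first WT shoot library and 46.9% without the third. Every one of the 572 genes kept its sign in each of these settings. Both organs contributed to the expression of most interaction genes: 484 (84.6%) averaged at least 1 CPM in at least 1 genotype of each organ, against 70.9% of all genes tested. A gene that reached 1 CPM in only 1 genotype counts here, so a response to OX6 can itself bring a gene into this share.

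Some genes of nitrate assimilation responded in opposite directions in the organs. Nitrate reductase, siroheme synthase and a second nitrate reductase fell in OX6 roots and rose in OX6 shoots. Genes that respond to nitrate or report nitrogen status, such as LBD37 and BT2, rose in OX6 shoots without a call in roots. The list of nitrate-responsive genes, drawn up after values of its members had been seen, had 8 of 32 tested members called (25%, beside 1.97% of all genes), 7 positive and 1 negative. Its median interaction was 0.36 (log2), beside a value near 0 for all genes tested, from medians of -0.18 in roots and 0.14 in shoots. A narrower list of nitrate and ammonium uptake and reduction had 4 of 40 called (10%), all positive. In that list 2 members fell in roots (0.599% of all genes fell), and 4 rose and 4 fell in shoots (4.46% and 4.01% of all genes). Its shoot median was -0.03 (log2), and 2 members were called in both organs with opposite signs.

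Nitrate reductase [NAD(P)H] (LOC_Os02g53130, chromosome 2, 32513739 to 32517155, minus strand), which reduces nitrate to nitrite, had 179.6, 201 and 202 CPM in WT roots, 133, 124 and 136 in OX6 roots, 12.1, 8.66 and 7.56 in WT shoots and 54.0, 53.7 and 58.9 in OX6 shoots. All WT roots were above all OX6 roots, and all OX6 shoots were above all WT shoots, so the genotypes stood in opposite orders in the organs without overlap. The gene fell 1.48-fold in OX6 roots (adjusted p = 0.0189) and rose 5.92-fold in OX6 shoots (adjusted p = 1.15e-09), an interaction of 3.13 ± 0.17 (adjusted p = 2.19e-08). Root levels exceeded shoot levels by far in WT and by less in OX6. Siroheme synthase (LOC_Os01g44050, chromosome 1, 25234661 to 25238165, plus strand), which makes the cofactor of nitrite and sulfite reductases, had 133, 142 and 135 CPM in WT roots, 108, 105 and 105 in OX6 roots, 21.99, 21.8 and 21.8 in WT shoots and 58.4, 53.1 and 50.3 in OX6 shoots. The 3 WT shoot values nearly coincided, and again neither organ's genotypes overlapped. It fell by 0.37 in roots (adjusted p = 0.0235) and rose by 1.302 in shoots (adjusted p = 1.85e-08) on the log2 scale, with an interaction of 1.67 ± 0.11 (adjusted p = 2.15e-07).

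A second nitrate reductase, annotated as NADH type (LOC_Os08g36480), averaged 91.7 ± 11.6 CPM in WT roots, 56.2 ± 10.01 in OX6 roots, 113 ± 26.5 in WT shoots and 174 ± 3.83 in OX6 shoots (SD, n = 3). Its interaction was 1.33 ± 0.22 (adjusted p = 0.00251), with a fall of 1.63-fold in roots and a rise of 1.55-fold in shoots, though the root call was lost in the fit of roots alone (adjusted p = 0.0564). Ferredoxin-6 (LOC_Os01g64120), of the electron carriers that serve nitrite reductase among other enzymes, averaged 303 ± 40.04 CPM in WT roots, 232 ± 43.4 in OX6 roots, 23.3 ± 3.53 in WT shoots and 45.5 ± 3.22 in OX6 shoots. It rose 1.95-fold in shoots (adjusted p = 0.000369) and missed the threshold in roots (adjusted p = 0.323), and its interaction was 1.35 ± 0.20 (adjusted p = 0.000807). NPF6.3 (LOC_Os10g40600), whose Arabidopsis homologue transports and senses nitrate, averaged 244 ± 10.5 CPM in WT roots, 173 ± 25.7 in OX6 roots, 21.3 ± 4.29 in WT shoots and 39.6 ± 6.65 in OX6 shoots. Its interaction was 1.39 ± 0.20 (adjusted p = 0.000916), its shoot rise 1.86-fold, and its root difference of -0.50 was called in the fit of roots alone (adjusted p = 0.0124) but not in the fit of 12 libraries (adjusted p = 0.143).

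LBD37 (LOC_Os03g41330), whose Arabidopsis homologue represses nitrate-responsive genes, had 118, 158 and 126 CPM in WT roots, 122, 119 and 98.5 in OX6 roots, 14.97, 13.0 and 11.5 in WT shoots and 33.6, 41.9 and 45.7 in OX6 shoots. The root genotypes overlapped and the shoot genotypes did not. It rose 3.07-fold in shoots, with an interaction of 1.86 ± 0.19 (adjusted p = 2.69e-05). BT2 (LOC_Os01g68020), a BTB and TAZ domain protein tied to nitrogen use, rose 2.32-fold in shoots (interaction 1.06 ± 0.13, adjusted p = 0.00022). Its relative BT1 (LOC_Os04g40630) was the 1 negative member, falling 1.53-fold in shoots (interaction -0.88 ± 0.14, adjusted p = 0.00214). Ammonium transporter 2 member 3 (LOC_Os01g61510) averaged 2.77 CPM in WT shoots and 8.93 in OX6 shoots, beside 21.3 and 19.4 in WT and OX6 roots (interaction 1.79 ± 0.22, adjusted p = 0.000169). Asparagine synthetase 1 (LOC_Os03g18130), which makes the amide used for nitrogen transport, rose 1.74-fold in shoots (interaction 1.14 ± 0.22, adjusted p = 0.0097). ACR6 (LOC_Os04g32110), an ACT domain protein of a family thought to sense amino acids, had the smallest adjusted p of the shoot-only genes with an informative name. It had 161, 177 and 159.7 CPM in WT roots, 154, 144 and 148 in OX6 roots, 65.1, 68.7 and 58.2 in WT shoots and 181, 164 and 191 in OX6 shoots. The OX6 shoots lay above all WT shoots by a wide margin, and 2 of the 3 lay above every root library. The interaction was 1.64 ± 0.13 (adjusted p = 1.29e-06). ACR3 (LOC_Os02g34990) of the same family fell 3.13-fold in shoots, with an interaction of -1.29 ± 0.18 (adjusted p = 0.000431), and was also called lower in the fit of roots alone (adjusted p = 0.03).

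**Figure D2:**
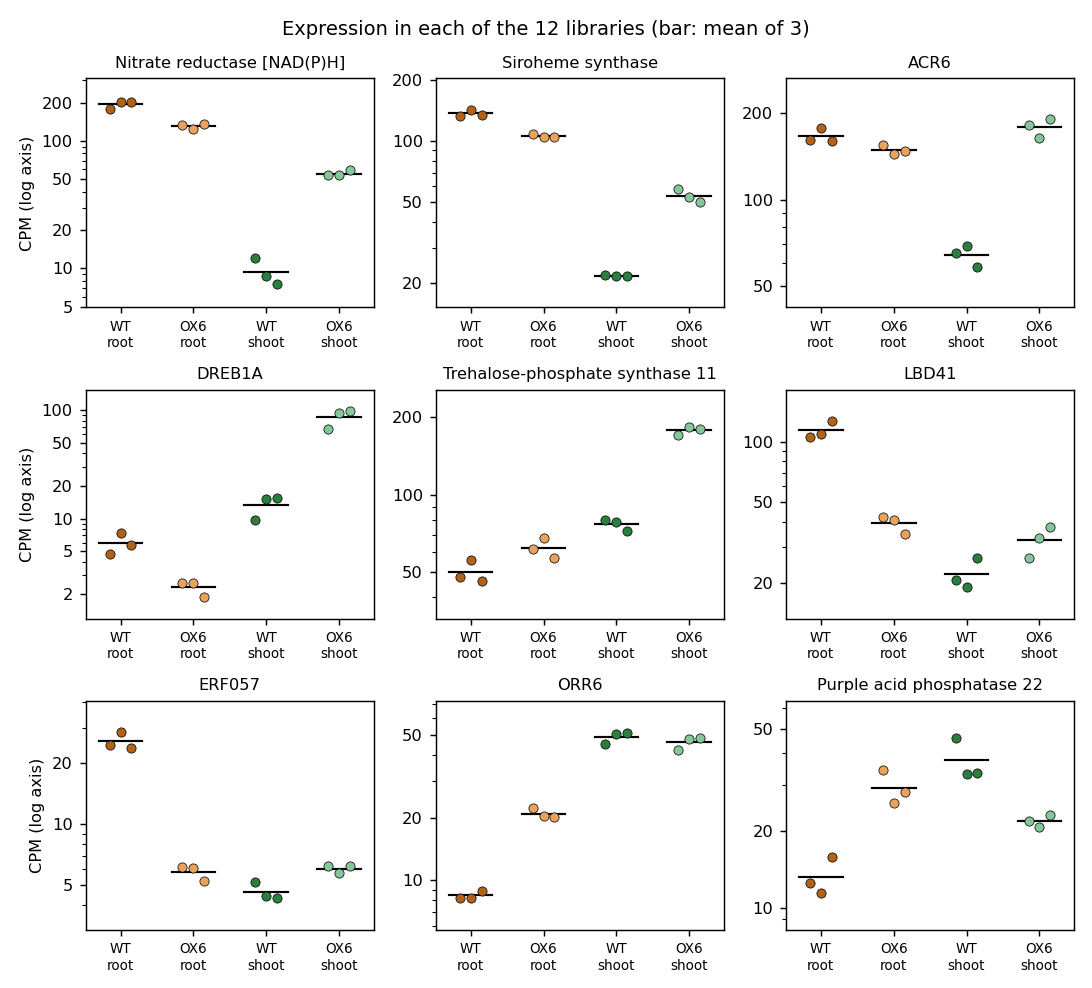
CPM (log axis) of 9 interaction genes in each library of WT and OX6 roots and shoots (3 points per group, bar at the mean). Nitrate reductase, siroheme synthase, DREB1A and LBD41 have group means in opposite orders in the 2 organs, LBD41 with overlapping shoots, ACR6 and trehalose-phosphate synthase 11 separate mainly in shoots, ERF057 and ORR6 mainly in roots, and purple acid phosphatase 22 is higher in OX6 roots and lower in OX6 shoots.

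Some genes of the low-oxygen response fell in OX6 roots. Of 31 tested members of that list, also drawn up after values had been seen, 7 fell in OX6 roots (0.599% of all genes tested fell). In OX6 shoots 3 rose and 1 fell (4.46% rose and 4.01% fell among all genes). For the interaction 4 (12.9%, beside 1.97% of all genes) were called, all positive. The median member was at -0.41 (log2) in roots and -0.01 in shoots. LBD41 (LOC_Os01g32770), a transcription factor induced by low oxygen in Arabidopsis, had 106, 109 and 127 CPM in WT roots, 42.4, 41.1 and 35.0 in OX6 roots, 20.6, 19.0 and 26.5 in WT shoots and 26.4, 33.5 and 37.8 in OX6 shoots. Its root genotypes were well apart, while its shoot genotypes overlapped at the highest WT and the lowest OX6 library. It fell by 1.53 in roots (adjusted p = 3.91e-06) and rose by 0.57 in shoots (adjusted p = 0.018), an interaction of 2.09 ± 0.19 (adjusted p = 9.72e-06).

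Plant cysteine oxidase 2 (LOC_Os12g42860), of the enzymes that mark group VII factors in the presence of oxygen and are themselves induced when it is low, had 173, 164 and 175 CPM in WT roots, 106, 106 and 92.5 in OX6 roots, 49.3, 50.02 and 58.1 in WT shoots and 69.2, 71.8 and 83.3 in OX6 shoots. No values overlapped between genotypes, with WT above OX6 in roots and below it in shoots, and the interaction was 1.26 ± 0.13 (adjusted p = 3.85e-05). ERF071 (LOC_Os01g21120), an ethylene-responsive factor, averaged 71.7 ± 18.0 CPM in WT roots, 14.6 ± 5.54 in OX6 roots, 9.57 ± 1.71 in WT shoots and 21.6 ± 3.23 in OX6 shoots, with an interaction of 3.46 ± 0.35 (adjusted p = 0.00016); its root fall of 4.89-fold missed the threshold in the fit of roots alone (adjusted p = 0.0711). Plant cysteine oxidase 1 was near the detection limit, with 22, 29 and 11 reads in WT roots, 1, 5 and 0 in OX6 roots, 0, 3 and 1 in WT shoots and 4, 18 and 4 in OX6 shoots. Its interaction (adjusted p = 0.0287) was lost without the first or second WT root library (adjusted p of 0.0725 and 0.0896) and without the first or the third OX6 root library (0.0852 and 0.0732). ERF057 (LOC_Os03g09170), another ethylene-responsive factor, was not on the low-oxygen list. It had 24.7, 28.5 and 23.8 CPM in WT roots, 6.17, 6.08 and 5.25 in OX6 roots, 5.18, 4.40 and 4.31 in WT shoots and 6.19, 5.73 and 6.20 in OX6 shoots. Its WT roots stood alone at a high level, the other groups lying near each other. It fell 4.40-fold in roots (adjusted p = 2.13e-08) and differed by 0.39 in shoots (adjusted p = 0.0876), an interaction of 2.53 ± 0.19 (adjusted p = 7.6e-07).

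Small proteins of the wound-induced family (Pfam PF12609) also fell in OX6 roots. Of 11 models, all tested, 6 fell in OX6 roots, 3 rose in OX6 shoots and 6 (54.5%) had a positive interaction. Among all genes tested, 0.599% fell in roots, 4.46% rose in shoots and 1.28% had a positive interaction. The list was drawn up after these values had been seen, and 3 were called without the second or the third WT root library or the third OX6 root library. Of the 6, 4 are neighbours on chromosome 4 between 32295071 and 32337872. LOC_Os04g54300 had 22.6, 19.9 and 26.2 CPM in WT roots, 5.70, 6.98 and 5.72 in OX6 roots, 7.31, 7.79 and 8.81 in WT shoots and 12.1, 11.9 and 15.7 in OX6 shoots. All WT roots exceeded all OX6 roots, and all OX6 shoots exceeded all WT shoots. It fell 3.73-fold in roots (adjusted p = 5.27e-07) and rose 1.66-fold in shoots (adjusted p = 0.00447), an interaction of 2.63 ± 0.21 (adjusted p = 1.6e-06). The neighbour LOC_Os04g54240 fell 3.81-fold in roots and was not called in shoots (adjusted p = 0.117), with an interaction of 2.34 ± 0.22 (adjusted p = 8.16e-06). LOC_Os04g54310 had an interaction of 2.65 ± 0.37 (adjusted p = 0.000513), from averages of 13.0 ± 3.53 CPM in WT roots, 4.13 ± 1.06 in OX6 roots, 1.87 ± 0.42 in WT shoots and 3.73 ± 1.11 in OX6 shoots. Its shoot rise missed the threshold in the fit of shoots alone (adjusted p = 0.0586). Reads of such near copies may be shared between them.

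In 4 families of stress and hormone response factors a minority of members was called, mostly with positive interactions. Called members numbered 8 of 124 MYB factors (6.45%, all positive), 6 of 83 NAC factors (7.23%, all positive), 6 of 92 WRKY factors (6.52%, 5 positive) and 8 of 108 AP2/ERF factors outside DREB1 (7.41%, 6 positive). Among all genes tested, 1.97% were called, 1.28% with a positive and 0.692% with a negative interaction. The list medians were 0.11, 0.08, 0.19 and -0.03 (log2), beside a value near 0 for all genes. With 1 library left out the calls numbered 3 to 7 MYB, 5 to 6 NAC, 2 to 9 WRKY and 4 to 9 AP2/ERF factors. The MYB, WRKY and AP2/ERF counts each fell by more than 1.5 times without the second or the third WT root library or the third OX6 root library. So did the MYB count without the first WT root, second OX6 root, the third WT shoot or the third OX6 shoot library, the WRKY count without the second OX6 root or first OX6 shoot library, and the AP2/ERF count without the third OX6 shoot library. Of 9 tested DREB1 factors, which act in cold and drought responses, 2 were called (22.2%, both positive) and 4 rose in shoots (4.46% of all genes rose there). Only 1 of the 9 averaged at least 1 CPM in at least 1 genotype of each organ.

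DREB1A (LOC_Os09g35030, chromosome 9, 20403149 to 20404332, minus strand) had 4.67, 7.37 and 5.73 CPM in WT roots, 2.55, 2.56 and 1.89 in OX6 roots, 9.79, 15.2 and 15.3 in WT shoots and 67.2, 95.4 and 98.2 in OX6 shoots. OX6 was below every WT library in roots and above every WT library in shoots, and the first library of both shoot groups was the lowest. It fell 2.54-fold in roots (adjusted p = 0.00528) and rose 6.42-fold in shoots (adjusted p = 5.19e-07), an interaction of 4.03 ± 0.30 (adjusted p = 2.61e-06). A DREB1 neighbour on the same chromosome, LOC_Os09g35010, had an interaction of 2.37 ± 0.48 (adjusted p = 0.0124), which was lost without the second or the third WT root library (adjusted p of 0.0552 and 0.0671). HSPRO2 (LOC_Os01g63690), whose Arabidopsis homologue binds the energy-sensing kinase SnRK1, averaged 78.5 ± 10.6 CPM in WT roots, 56.2 ± 5.55 in OX6 roots, 8.96 ± 0.477 in WT shoots and 23.7 ± 3.11 in OX6 shoots. It fell 1.40-fold in roots and rose 2.64-fold in shoots, with an interaction of 1.88 ± 0.17 (adjusted p = 6.99e-06). The kelch-repeat F-box homologue of At1g80440 (LOC_Os02g11790), of a group that in Arabidopsis directs breakdown of phenylpropanoid enzymes and type-B cytokinin regulators, had 12.7, 9.57 and 9.41 CPM in WT roots, 5.10, 4.73 and 5.90 in OX6 roots, 4.34, 6.49 and 4.47 in WT shoots and 11.3, 14 and 15.3 in OX6 shoots. The genotypes were in opposite orders in the 2 organs without overlap, and the interaction was 2.40 ± 0.26 (adjusted p = 3.85e-05).

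NAC90 (LOC_Os01g64310) averaged 4.18 ± 1.21 CPM in WT shoots and 15.8 ± 1.51 in OX6 shoots, and had under 1 CPM in every root library. It rose 3.79-fold in shoots, with an interaction of 2.95 ± 0.39 (adjusted p = 0.000319). WRKY46 (LOC_Os09g16510), a factor of pathogen and drought responses in Arabidopsis, rose 2.04-fold in shoots (interaction 1.21 ± 0.14, adjusted p = 0.000129), and Myb-related protein Hv1 (LOC_Os08g43550) rose 1.89-fold (interaction 1.11 ± 0.14, adjusted p = 0.000275). In the jasmonate list 3 of 53 were called (5.66%, beside 1.97% of all genes), all positive, and 6 without the second WT shoot library. TIFY 10a and TIFY 11b, repressors that jasmonate itself induces, rose 1.68-fold and 1.93-fold in shoots (interactions 1.01 ± 0.16 and 1.27 ± 0.24; adjusted p = 0.0018 and 0.0106). Cytochrome P450 94C1 (LOC_Os11g05380), which oxidises active jasmonate, rose 4.91-fold in shoots, from 0.664, 1.204 and 0.989 CPM in the WT libraries to 6.33, 3.20 and 4.82 in the OX6 libraries (interaction 2.95 ± 0.41, adjusted p = 0.000479). Momilactone A synthase (LOC_Os07g46852), of rice phytoalexin synthesis, rose 2.74-fold in shoots (interaction 1.91 ± 0.25, adjusted p = 0.00052).

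Trehalose-phosphate synthases rose in OX6 shoots. Of 21 tested members of the list of trehalose phosphate enzymes and FLZ zinc fingers, 5 (23.8%) had a positive interaction, and 7 rose and 1 fell in shoots. Among all genes tested, 1.28% had a positive interaction, and 4.46% rose and 4.01% fell in shoots. Its median interaction was 0.40 (log2), from 0.01 in roots and 0.37 in shoots. The 5 were trehalose-phosphate synthases of the class II type, regarded as regulatory more than catalytic and responsive to carbon and nitrogen status in Arabidopsis. A separate list of FCS-type zinc finger proteins, drawn up after values had been seen, had 27 tested members. In shoots 1 of them rose and 6 fell, in roots 4 fell (0.599% of all genes), and 2 had a positive interaction. Synthase 11 (LOC_Os02g54820) had 48.2, 56.0 and 46.1 CPM in WT roots, 61.8, 68.05 and 57.1 in OX6 roots, 79.9, 78.8 and 72.1 in WT shoots and 171, 184 and 180.0 in OX6 shoots. OX6 roots lay slightly above WT roots, and OX6 shoots lay far above WT shoots. It rose 2.32-fold in shoots (adjusted p = 3.07e-07) and was not called in roots (adjusted p = 0.168), an interaction of 0.90 ± 0.13 (adjusted p = 0.000756). Synthases 9, 10, 6 and 7 rose 3.19-fold, 2.30-fold, 2.07-fold and 1.93-fold in shoots, with interactions of 1.25, 1.12, 1.09 and 0.70.

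Starch and sucrose enzymes as a list were near the background, with 3 of 80 called (3.75%, all positive, beside 1.97% of all genes). Beta-amylase 3 (LOC_Os10g41550), which releases maltose from starch, had 0.629, 1.75 and 1.40 CPM in WT shoots and 7.34, 6.75 and 9.04 in OX6 shoots, beside averages of 5.01 and 4.78 in WT and OX6 roots. The shoot values did not overlap, and the interaction was 2.63 ± 0.34 (adjusted p = 0.000292). A neutral invertase (LOC_Os01g22900), which splits sucrose, rose 1.87-fold in shoots (interaction 0.80 ± 0.14, adjusted p = 0.00431). TSJT1 (LOC_Os04g58280), annotated as a stem-specific protein, rose 2.51-fold in shoots, with an interaction of 1.61 ± 0.15 (adjusted p = 9.15e-06). A DnaJ chaperone (LOC_Os06g50230) rose 2.34-fold (interaction 1.64 ± 0.16, adjusted p = 1.33e-05), and LONGIFOLIA 1 (LOC_Os07g41200), which promotes organ elongation in Arabidopsis, rose 2.39-fold (interaction 1.32 ± 0.14, adjusted p = 2.69e-05). TSJT1 and the DnaJ chaperone were also called lower in the fit of roots alone (adjusted p of 0.0187 and 0.0232). Glycolysis and the tricarboxylic acid cycle had 4 of 134 called (2.99%, near the 1.97% of all genes), all negative, and 2 without any 1 root library or the third OX6 shoot library. In shoots 5 members of that list rose and 11 fell (4.46% and 4.01% of all genes). Among the 4 called, 2 chloroplastic malate dehydrogenases (LOC_Os07g43700 and LOC_Os08g33720), which shuttle reducing equivalents, fell 1.59-fold and 1.63-fold in shoots, with interactions of -1.002 and -0.68.

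**Figure D3:**
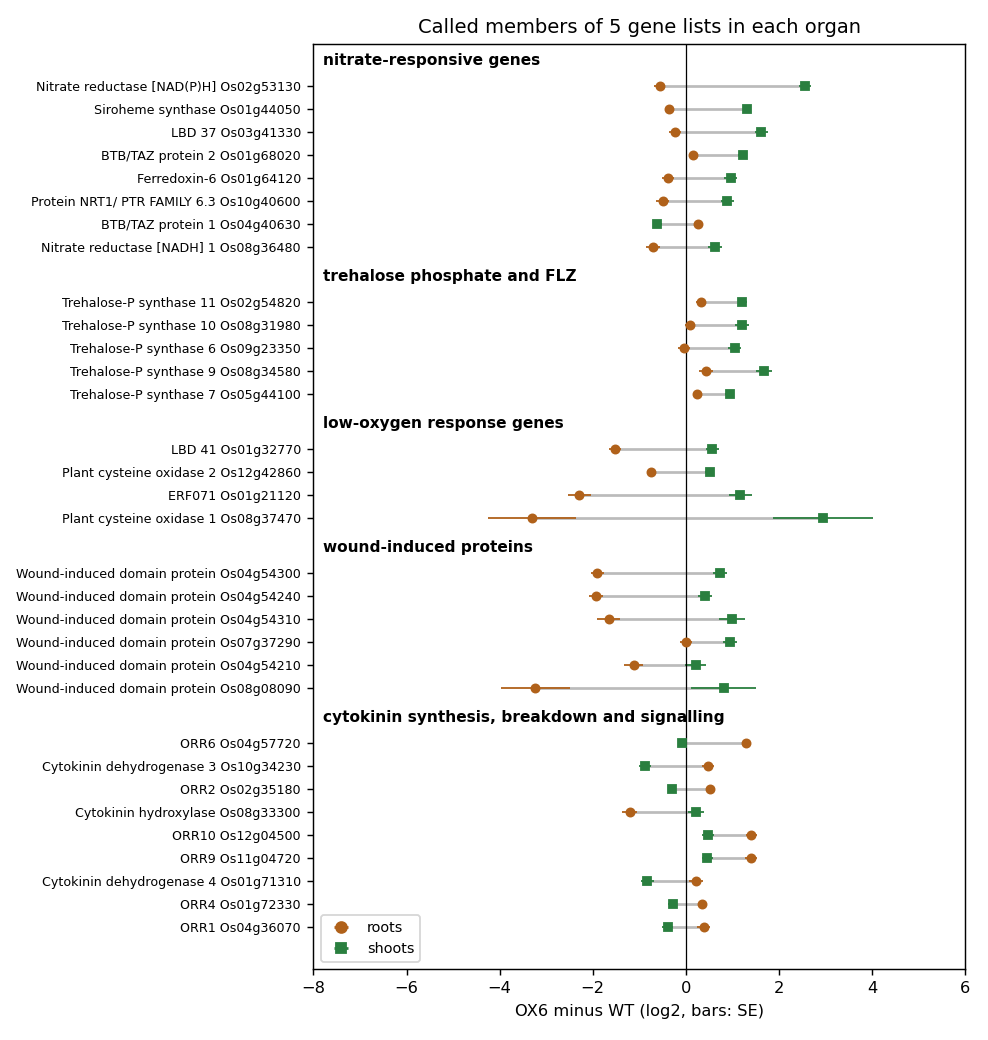
OX6 minus WT (log2, bars SE) in roots (circles) and shoots (squares) of the called members of 5 lists. Called nitrate-responsive and trehalose members lie further right in shoots, except BT1, low-oxygen and wound-induced members lie at or left of 0 in roots and right of it in shoots, and cytokinin members lie further right in roots, except the cytokinin hydroxylase.

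The called cytokinin genes had mostly negative interactions. Of 58 tested, 9 (15.5%, beside 1.97% of all genes) were called, 8 negative and 1 positive. In roots 4 rose and 2 fell (0.41% and 0.599% of all genes), and in shoots 3 rose and 5 fell (4.46% and 4.01% of all genes). The list median was near 0. The type-A response regulators, which are induced by cytokinin and damp its signal, made up 6 of the 9. ORR6 (LOC_Os04g57720, chromosome 4, 34375978 to 34377357, plus strand) had 8.24, 8.24 and 8.92 CPM in WT roots, 22.1, 20.3 and 20.1 in OX6 roots, 45.3, 50.4 and 51.2 in WT shoots and 42.3, 47.8 and 48.1 in OX6 shoots. The OX6 roots were all far above the WT roots, and the shoot genotypes overlapped. It rose 2.46-fold in roots (adjusted p = 3.06e-07) and was not called in shoots (adjusted p = 0.616), an interaction of -1.39 ± 0.13 (adjusted p = 9.67e-06). ORR2 (LOC_Os02g35180) rose 1.43-fold in roots and fell 1.22-fold in shoots (interaction -0.80 ± 0.12, adjusted p = 0.000667), the shoot fall being lost in the fit of shoots alone (adjusted p = 0.103).

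ORR9 (LOC_Os11g04720) and ORR10 (LOC_Os12g04500) rose in both organs, 2.63-fold and 2.65-fold in roots and 1.38-fold and 1.39-fold in shoots, each with an interaction of -0.93 (adjusted p = 0.00787 and 0.00552). Chromosomes 11 and 12 share a duplicated segment that holds this near-identical pair, so which copy a read came from is uncertain. ORR4 (LOC_Os01g72330) was called for the interaction (-0.63 ± 0.13, adjusted p = 0.0113) and in neither organ, though its root rise was called in the fit of roots alone (adjusted p = 0.0161). The interaction of ORR1 (LOC_Os04g36070; -0.77, adjusted p = 0.04) was lost without any 1 WT root or OX6 shoot library and without the second or the third OX6 root library (adjusted p of 0.0504 to 0.126). Cytokinin dehydrogenases 3 and 4 (LOC_Os10g34230 and LOC_Os01g71310), which break cytokinins down, fell 1.84-fold and 1.78-fold in shoots, with interactions of -1.35 ± 0.18 and -1.04 ± 0.21 (adjusted p = 0.00028 and 0.0108). The root difference of dehydrogenase 3, 0.48, was called in the fit of roots alone (adjusted p = 0.00115) and not in the fit of 12 libraries (adjusted p = 0.0794). The cytokinin hydroxylase (LOC_Os08g33300), which makes zeatin-type cytokinins, was the positive member. It had 14.3, 13.6 and 13.1 CPM in WT roots and 5.65, 6.06 and 5.99 in OX6 roots, a fall of 2.31-fold (adjusted p = 0.000263), and overlapping shoots (interaction 1.43 ± 0.24, adjusted p = 0.00214).

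Among the carotenoid-derived hormones, the CCD8 homologue A (LOC_Os01g38580), of the enzyme family of strigolactone synthesis, had 2.57, 1.68 and 2.77 CPM in WT roots, 5.22, 4.08 and 7.21 in OX6 roots, 21.6, 19.7 and 12.1 in WT shoots and 9.198, 11.9 and 10.6 in OX6 shoots. OX6 was above WT in roots and below it in shoots without overlap. It rose 2.35-fold in roots (adjusted p = 0.0218), the shoot difference of -0.75 missed the threshold (adjusted p = 0.0507) but was called in the fit of shoots alone (adjusted p = 0.0254), and the interaction was -1.99 ± 0.34 (adjusted p = 0.00358). With ZAS and NCED1, it was 1 of 3 called among 11 tested carotenoid cleavage dioxygenases (27.3%, beside 1.97% of all genes). ZAS is the overexpressed gene itself, so its call does not count as a response of the family. NCED1 (LOC_Os12g42280), of abscisic acid synthesis, fell 2.97-fold in roots, but its interaction (1.73, adjusted p = 0.0393) was lost without any 1 WT root library, the first or the third OX6 root library, or the second or the third library of either shoot group (adjusted p of 0.0543 to 0.109). The abscisic acid list had 3 of 32 called (9.38%), all positive. The receptor PYL4 (LOC_Os03g18600) rose 1.70-fold in shoots (interaction 1.0 ± 0.14, adjusted p = 0.00052), and abscisic acid 8'-hydroxylase 1 (LOC_Os02g47470), which breaks the hormone down, rose 2.47-fold (interaction 1.39 ± 0.21, adjusted p = 0.000953). Beta-carotene hydroxylase 2 (LOC_Os04g48880), which makes xanthophylls, fell 1.81-fold in shoots (interaction -1.004 ± 0.19, adjusted p = 0.0071). A gibberellin 2-beta-dioxygenase (LOC_Os01g55240), which inactivates gibberellins, averaged 65.0 ± 9.71 CPM in WT roots, 46.7 ± 5.04 in OX6 roots, 7.15 ± 1.302 in WT shoots and 14.8 ± 1.84 in OX6 shoots. It rose 2.05-fold in shoots, with an interaction of 1.51 ± 0.20 (adjusted p = 0.000292), and was called lower in the fit of roots alone (adjusted p = 0.032).

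Cell wall loosening genes moved both ways in shoots. Of 77 tested expansins and xyloglucan endotransglucosylases, 10 (13%, beside 1.97% of all genes) were called, 4 positive and 6 negative. All 10 were shoot-only in the fit of 12 libraries. Expansin-like A1 (LOC_Os03g04020) had 67.8, 68.5 and 67.3 CPM in WT roots, 75.02, 76.4 and 67.6 in OX6 roots, 77.8, 75.9 and 78.9 in WT shoots and 141, 151 and 159.7 in OX6 shoots. Only the OX6 shoots stood apart. It rose 1.94-fold in shoots, with an interaction of 0.85 ± 0.11 (adjusted p = 0.000292). Expansin-like A2 and endotransglucosylase 30 also rose, 2.54-fold and 2.20-fold. Expansin-A2 (LOC_Os01g60770) fell 2.30-fold in shoots (interaction -0.94 ± 0.17, adjusted p = 0.00544), endotransglucosylase 32 (LOC_Os07g29750) fell 2.24-fold (interaction -1.02 ± 0.20) and expansin-A4 (LOC_Os05g39990) fell 1.39-fold (interaction -0.87 ± 0.16). In the fit of roots alone, expansin-A2 was also called lower (adjusted p = 0.0492) and expansin-A4 higher (adjusted p = 0.0205). Expansin-B5 (LOC_Os04g46650) had 3, 10 and 5 reads in the WT shoots and none in the OX6 shoots, and no fold is given for it.

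Of 134 class III peroxidases, which act on cell walls and in stress, 11 (8.21%, beside 1.97% of all genes) were called, 4 positive and 7 negative. Of the 7, 5 were at least 10 times higher in WT roots (17.9 to 231 CPM) than in WT shoots (0.356 to 16.3 CPM), as was 1 of the 4. Root cap transcripts were also lower in OX6 shoots, at 2.97 to 3.41 CPM in sum against 6.05 to 14.4 in WT shoots, and the part of such root transcripts in the peroxidase values was not tested. The cationic peroxidase SPC4 model LOC_Os04g59260 averaged 231 ± 1.04 CPM in WT roots, 259 ± 9.47 in OX6 roots, 16.3 ± 4.92 in WT shoots and 6.86 ± 0.851 in OX6 shoots. It fell 2.39-fold in shoots, where it is a minor transcript, with an interaction of -1.42 ± 0.22 (adjusted p = 0.00161). Peroxidase P7 (LOC_Os06g35520), with 391 CPM in WT roots, rose 2.19-fold in shoots from 3.83 to 8.48 CPM (interaction 1.07 ± 0.18, adjusted p = 0.00259). In phosphate sensing, uptake and release, 4 of 71 were called (5.63%, beside 1.97% of all genes), 2 in each direction. Purple acid phosphatase 22 (LOC_Os11g05400), of a family that frees phosphate from organic compounds, had 12.4, 11.4 and 15.7 CPM in WT roots, 34.4, 25.6 and 28.2 in OX6 roots, 46.1, 33.2 and 33.5 in WT shoots and 21.7, 20.6 and 22.9 in OX6 shoots. Here OX6 was above WT in roots and below it in shoots, the reverse of most opposite genes. It rose 2.23-fold in roots (adjusted p = 0.000206) and fell 1.72-fold in shoots (adjusted p = 0.00255), an interaction of -1.94 ± 0.21 (adjusted p = 3.85e-05). The phosphate transporters 1-1 (LOC_Os03g05620) and 1-4 (LOC_Os04g10750) parted in shoots, the former rising 1.80-fold (interaction 0.91 ± 0.16) and the latter falling 1.65-fold (interaction -0.87 ± 0.16; adjusted p of 0.0545 in limma-voom with a variance factor per organ). Acid phosphatase 1 (LOC_Os06g36390), which is not among the called members of that list, rose 6.26-fold in shoots. Its shoot values went from 2.31, 3.97 and 4.88 CPM in WT to 23.8, 21.98 and 24.7 in OX6, while its roots overlapped (interaction 2.88 ± 0.28, adjusted p = 1.65e-05).

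Some further genes were called in roots and not in shoots. Vacuolar iron transporter 1.2 (LOC_Os09g23300), which stores iron, had 39.0, 44.8 and 44.5 CPM in WT roots, 18.5, 20.8 and 22.6 in OX6 roots, 31.2, 40.3 and 26.8 in WT shoots and 38.1, 40.3 and 32.4 in OX6 shoots. The OX6 roots were all below the WT roots and the shoots overlapped. It fell 2.07-fold in roots, with an interaction of 1.22 ± 0.19 (adjusted p = 0.00127). Respiratory burst oxidase homologue B (LOC_Os12g35610), which makes superoxide, averaged 115 ± 18.9 CPM in WT roots, 40.8 ± 10.7 in OX6 roots, 4.38 ± 0.758 in WT shoots and 6.18 ± 0.966 in OX6 shoots, and its interaction was 1.98 ± 0.28 (adjusted p = 0.000893). That call was lost in limma-voom with a variance factor per organ (adjusted p = 0.15), and the root fall of 2.82-fold was not called in the fit of roots alone (adjusted p = 0.0671). DnaJ 11 (LOC_Os08g43490), a chloroplastic chaperone, fell 1.67-fold in roots (interaction 0.99 ± 0.14, adjusted p = 0.000667). Temperature-induced lipocalin-1 (LOC_Os02g39930), a stress protein of membranes, was a shoot transcript that rose in roots from 14, 10 and 14 reads in the WT libraries to 33, 69 and 62 in the OX6 libraries, with shoots at 61.3, 59.0 and 57.5 CPM in WT and 49.9, 54.8 and 66.1 in OX6. Its interaction was -2.13 ± 0.30 (adjusted p = 0.00058).

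Genes that moved the same way in both organs by different amounts were few. Cysteine-rich receptor-like kinase 15 (LOC_Os11g10710), of a family of stress-induced receptors, had 8.83, 6.62 and 9.44 CPM in WT roots, 18.3, 17.4 and 17.5 in OX6 roots, 1.64, 1.99 and 3.0 in WT shoots and 15.6, 15.3 and 15.8 in OX6 shoots. OX6 reached like levels in both organs from a lower WT level in shoots, rising 2.14-fold in roots and 7.07-fold in shoots (interaction 1.72 ± 0.24, adjusted p = 0.000534). An anthocyanidin 3-O-glucosyltransferase (LOC_Os06g09240), which stabilises anthocyanins, rose more in roots, 4.80-fold against 1.89-fold (interaction -1.34 ± 0.19, adjusted p = 0.000642). RICESLEEPER 2 (LOC_Os06g40240), a domesticated transposase, rose 2.41-fold in roots and 8.56-fold in shoots (interaction 1.83 ± 0.29, adjusted p = 0.00186).

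Large housekeeping and photosynthetic groups had few or no interaction calls. In edgeR's test, 0 of 82 photosystem, antenna and electron transport genes were called, with 15 (18.3%) at an unadjusted p under 0.05, 3 (3.66%) called by DESeq2 and 0 by limma-voom. Of all genes tested, 13.3% were at an unadjusted p under 0.05, and DESeq2 called 4.13% and limma-voom 1.66%. Likewise 0 of 48 chloroplast ribosomal proteins (4, or 8.33%, unadjusted) and 0 of 59 mitochondrial respiratory chain genes (3, or 5.08%, unadjusted) were called, and 0 of either list by DESeq2 or limma-voom. Of 76 genes of cellulose synthesis and related wall assembly 0 were called (14, or 18.4%, unadjusted, 5, or 6.58%, by DESeq2 and 1 by limma-voom). The photosystem genes were at medians of -0.19 (log2) in roots and -0.18 in shoots, with a median interaction of 0.08. Cytosolic ribosomal proteins had 1 of 222 called (0.45%), beside the 1.97% of all genes. A p that misses the threshold does not show that the organs responded alike in these genes.

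**Figure D4:**
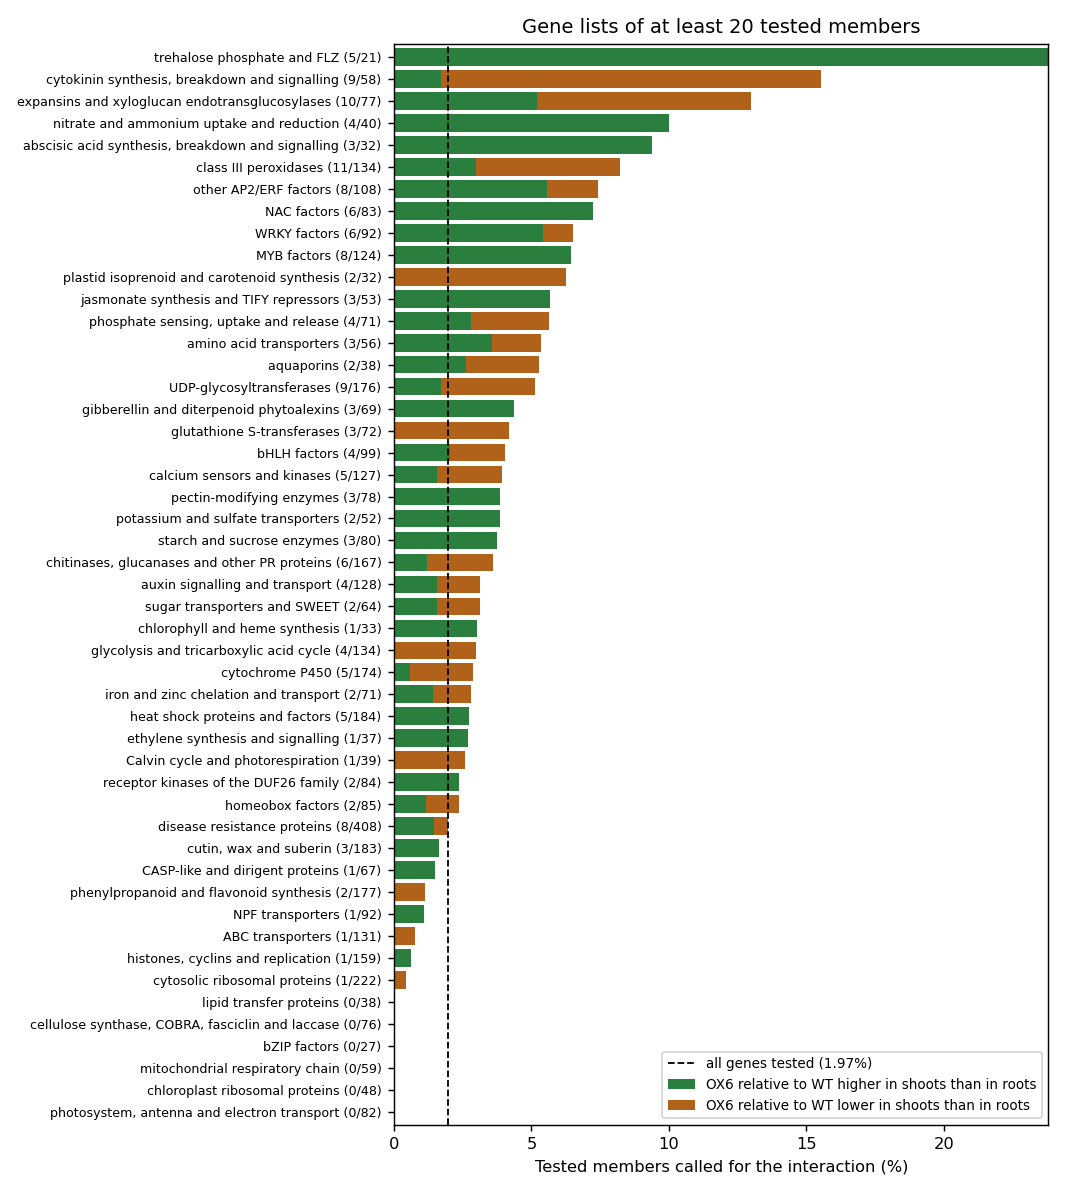
Share of tested members called for the interaction (x axis, %) in the lists of at least 20 tested members that were written with the design, when earlier results of these data were known, with called and tested members in brackets. Trehalose, cytokinin and expansin lists lie furthest above the dashed line of all genes tested (1.97%), and the photosystem and chloroplast ribosomal lists have 0 called.

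Some shoot-only genes that fell were far higher in WT roots than in WT shoots, and some were at trace level in shoots. Of the 166, 40 averaged under 1 CPM in WT shoots, 15 had no read in any OX6 shoot library, and 60 were at least 10 times higher in WT roots than in WT shoots. Of the 277 that rose, 25 averaged under 1 CPM in WT shoots. How many of these 277, or of all genes tested, were 10 times higher in WT roots was not counted. Of the 8 tested models with a root cap domain (Pfam PF06830), 7 (87.5%, beside 0.692% of all genes) had a negative interaction, on a list drawn up after these values were seen. LOC_Os01g73730 had 92.6, 95.8 and 80.8 CPM in WT roots, 90.1, 98.2 and 94.9 in OX6 roots, and 10, 84 and 42 reads in WT shoots against 0, 1 and 0 in OX6 shoots. Summed over the 8, root cap transcripts were 338 to 400.1 CPM in roots, 6.05, 14.4 and 10.5 in WT shoots, and 3.41, 3.41 and 2.97 in OX6 shoots. A wider set of 546 genes, chosen on these libraries for at least 10 CPM in roots and over 50 times the shoot level, summed to 272.8, 416 and 356 CPM in WT shoots and 273, 288 and 236 in OX6 shoots. Of that set 35 (6.41%) were called for the interaction, 32 of them negative. The part of these root transcripts in the negative interactions was not tested.

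**Figure D5:**
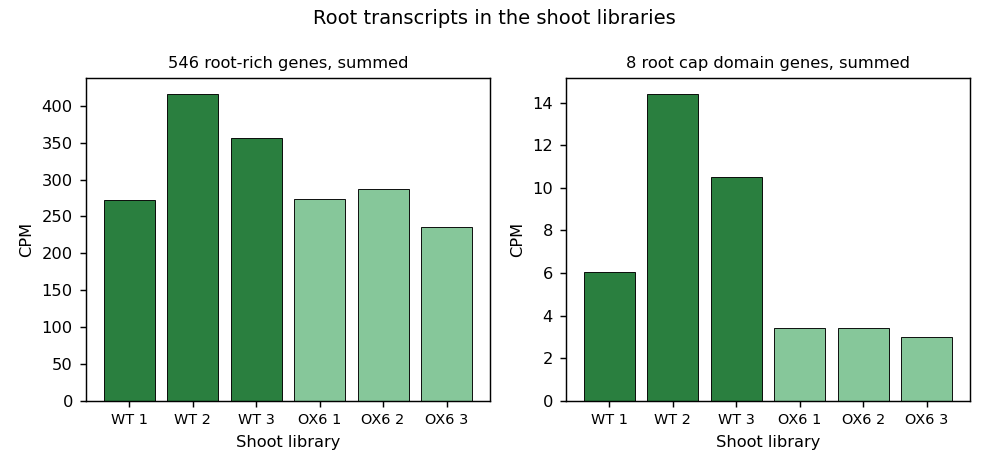
Summed CPM of 546 root-rich genes (left) and of 8 root cap domain genes (right) in each of the 6 shoot libraries. The second and the third WT libraries hold the most, 416 and 356 CPM on the left, and all WT libraries exceed all OX6 libraries on the right.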

How the data were processed

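Polyadenylated RNA from roots and shoots was sequenced in 12 libraries, grouped and numbered by their titles; the letter P there is unexplained. Values are unnormalised read counts for each gene model, as deposited. The submitters' processing notes list HISAT2 2.0.5 and featureCounts 1.5.0-p3. The sources used here give no genome build, annotation or strand setting. Coordinates are the file's, and overlapping, antisense or near-identical genes may share reads. Names are those of the closest homologue in the file (26067 models) or, where only a Pfam domain is given (35344 models), the domain. That LOC_Os09g15240 is ZAS is background knowledge.

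All 12 libraries were fitted with a mean per group in edgeR 4.0.16 (R 4.3.3): TMM scaling, filterByExpr (minimum count 10, minimum total 15), robust quasi-likelihood fit, two-sided tests, Benjamini-Hochberg adjustment over all genes tested, calls under 0.05. The organ responses come from the same fit. Standard errors are the absolute log2 difference over the root of the F statistic. CPM uses TMM-scaled library sizes. Chi-square per gene between replicates was 5.14 to 26.7, above the 1 that counting error alone would give, so no pair was merged as a repeat deposit of 1 library; this does not show separate plants. Computations were tested on simulated counts.

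The members and lists were chosen with earlier results of these data known. Of 64 keyword lists, 53 were written with the design, with those results known, and 11 were added after values were seen in this work; neither kind is independent of the data, and lists carry some members outside their theme. A rule named ZAS, the 5 genes of smallest adjusted interaction p per class and direction with an informative name and at least 5 CPM in the highest group, and up to 4 called members per list. Not all genes under this rule are described in the text. Among those left out are LOC_Os10g17260, LOC_Os07g19320 and LOC_Os04g55710, shoot-only genes that fell, and most genes of the class called in neither organ. Further called members are named where a list is described. Alternatives were RLE, upper-quartile and within-organ TMM scaling, no filter, 2 CPM filters, DESeq2 1.42.0, limma 3.58.1 voom with and without a variance factor per organ, 2 replicate blocks, stricter thresholds and each library left out.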

Additional observations from a re-analysis of the deposited data

Results flagged for a closer look

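The response to OX6 differed between roots and shoots by the test of the difference itself, edgeR's quasi-likelihood test of the interaction, in 572 genes, 371 with a positive and 201 with a negative interaction. In 26 of them the response was called in each organ with opposite signs. Named here are ZAS (LOC_Os09g15240), with an interaction of 5.56 on the log2 scale, and the 5 opposite genes of smallest adjusted p with an informative name. These were nitrate reductase LOC_Os02g53130 (3.13), siroheme synthase LOC_Os01g44050 (1.67), DREB1A LOC_Os09g35030 (4.03), HSPRO2 LOC_Os01g63690 (1.88) and LBD41 LOC_Os01g32770 (2.09). Each of these 6 genes kept its call with any 1 library left out.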

How the results depend on the processing

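All 572 interaction genes kept their sign under each alternative in which they were tested, and 313 kept their call with each of the 12 libraries left out in turn. The interaction count was 382 to 701 with a library left out (252 to 379 positive, 130 to 375 negative, 293 to 535 shoot-only, 38 to 79 root-only, 18 to 28 opposite, 11 to 21 same-direction; root calls 181 to 392, shoot calls 1546 to 2779). The negative count moved by more than 1.5 times without the first or the third WT root or WT shoot library, the shoot-only count and the root calls without the third WT root library, the root-only count without the second WT root library, and the shoot calls without the third OX6 shoot library. The cause was not tested.

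DESeq2 called 1200 genes (605 positive, 595 negative, 910 shoot-only, 134 root-only, 46 opposite, 33 same-direction; 557 root calls). The negative count was 133 in limma-voom and 121 with a variance factor per organ, which gave 907 root and 1524 shoot calls. Each organ fitted alone gave 753 root and 1481 shoot calls. At an adjusted p under 0.01 there were 294 genes (203 positive, 91 negative, 220 shoot-only, 37 root-only, 14 opposite, 10 same-direction; 181 root and 1013 shoot calls), and with an absolute log2 difference of at least 1, 333 (210 positive, 123 negative, 197 shoot-only, 4 opposite; 176 root and 636 shoot calls). A filter of CPM above 1 in 3 libraries of each organ tested 20295 genes and called 606, among them all 468 of the 572 that passed it.

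No pairing by replicate number was seen in the values. Same-numbered libraries of different groups correlated in their deviations at -0.0696 to 0.0509 over 18 pairs, and a library correlated best with its own number in 8 of 36 cases. These correlations cannot show whether same-numbered libraries came from the same plants, which the labels do not say. The replicate block called 471 genes, and a block of genotype and number 420, of which 129 were negative. Over the genes named under the rule, 3992 values under alternatives kept direction and call, 550 lost the call, and 4 turned sign, all of the list member LOC_Os05g47700, which was not called: -0.0357, -0.0246, -0.0133 and -0.0752 without the second WT root, the third OX6 root, first WT shoot or first OX6 shoot library, within a range of -0.0752 to 0.152 over all libraries left out in turn (0.05 with all 12). Counting error limits genes of low level most: 6036 of 29042 tested genes averaged under 1 CPM in both genotypes' roots and 5621 in both genotypes' shoots.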

Other observations

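Kelch-repeat F-box proteins, which bring other proteins to degradation, had 5 of 36 tested members called for the interaction (13.9%, beside 1.97% of all genes), all positive, on a list drawn up after values had been seen. Besides LOC_Os02g11790, the homologue of At2g44130 (LOC_Os11g14140) had 529.8, 610.0 and 532 CPM in WT roots, 500.5, 494 and 432 in OX6 roots, 118, 142 and 140.3 in WT shoots and 267, 242 and 291 in OX6 shoots. Its WT roots lay above its OX6 roots and its OX6 shoots above its WT shoots, and it rose 1.998-fold in shoots (interaction 1.23 ± 0.15, adjusted p = 0.000133). A second homologue of At1g80440 (LOC_Os06g39370) fell 1.64-fold in roots and was not called in shoots (adjusted p = 0.183), with an interaction of 0.97 ± 0.16 (adjusted p = 0.003). The homologues of At1g67480 and SKIP11 had interactions of 0.83 ± 0.14 and 0.69 ± 0.12.

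Some single genes outside the groups above also responded differently in the organs. Nicotianamine synthase 3 (LOC_Os07g48980), which makes a metal chelator, averaged 69.5 ± 1.16 CPM in WT roots, 93.6 ± 12.4 in OX6 roots, 80.9 ± 19.4 in WT shoots and 48.4 ± 6.35 in OX6 shoots (SD, n = 3). It fell 1.67-fold in shoots, with an interaction of -1.17 ± 0.20 (adjusted p = 0.00383), and its root rise was called in the fit of roots alone (adjusted p = 0.00772) and not in the fit of 12 libraries (adjusted p = 0.269). The auxin-responsive SAUR36 homologue (LOC_Os02g42990) fell 2.51-fold in shoots while its roots overlapped (interaction -1.38 ± 0.22, adjusted p = 0.00146). Amino acid permease 3 (LOC_Os12g08130) rose 2.09-fold in shoots (interaction 1.06 ± 0.20, adjusted p = 0.00718), and the universal stress protein PHOS32 (LOC_Os05g28740) rose 1.91-fold (interaction 1.13 ± 0.18, adjusted p = 0.00161). In the reverse check of organ traces, 881 genes at least 10 CPM in shoots and over 50 times their root level summed to 838 to 878 CPM in WT roots and 755 to 839 in OX6 roots, and 20 of them (2.27%, near the 1.97% of all genes tested) were called for the interaction, 9 positive.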
